A study of Homo sapiens with 6 samples.

Results

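Antisense noncoding RNAs are transcripts read from the strand opposite another gene, and their symbols are built from that gene's symbol followed by -AS. The antisense RNAs described here were the rows of the deposited expression table whose symbol ended in -AS or -AS with a number and whose mean normalized count over the 6 libraries was at least 20. They were 214 of the 1085 antisense symbols in the table, which held 35268 named genes. Each was set beside the gene named before -AS, called its host below. The mean over all libraries chose the members, so their levels are given as a description, and the difference between the groups played no part in the choice. The member just inside the limit was MNX1-AS1, with a mean of 20.6, and the row just outside it was ARHGAP31-AS1, with a mean of 19.7. A mean under 20 in the DMSO libraries alone was seen for 6 members, and in the YK-4-279 libraries alone for 0.

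The cells were Rh30, an established line from a fusion-positive rhabdomyosarcoma (FP-RMS), a soft tissue cancer with skeletal muscle features that is driven by PAX3-FOXO1. YK-4-279 is a small molecule developed against EWS-FLI1 and active toward ETS transcription factors more widely. Cells of one group were kept for 24 hours with YK-4-279 at 1 µM, and those of the other with the vehicle control (DMSO) for the same time, and each group gave 3 libraries. Both groups were the same line, with no genetic change between them, and polyadenylated RNA was sequenced from a directional library.

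Antisense RNAs arise in several ways. Some start at the host's own promoter and are transcribed away from it, others start inside the host or beyond its end and run across its body. A few have described roles, such as CDKN2B-AS1 (ANRIL), which is tied to Polycomb silencing of the neighbouring cell cycle inhibitors, or OIP5-AS1 (Cyrano), which is bound by microRNAs. Many others are kept at low levels by nuclear RNA decay and have no known function.

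The libraries held between 16724650 and 24677433 reads on named genes, and the antisense RNAs took between 0.147% and 0.157% of them. The lowest value of any member in any library was 8 reads. DMSO replicate 1 stood apart, with 6.05% of its reads on mitochondrial genes against 4.74% to 5.03% in the other 5 libraries. Of 15 muscle lineage markers, 13 had a mean of at least 10, and their summed normalized count ran from 103500 to 117060 in DMSO and from 116712 to 121812 with YK-4-279. Markers of other cell types were low: the 7 leukocyte markers summed to 3.78 to 14 in DMSO and 18 to 24 with YK-4-279, with 2 at 0, the 6 endothelial markers to 268 to 349 and 253 to 280, and the 7 epithelial markers to 56.8 to 80.7 and 77.2 to 107, with 2 at 0. Their part in the results was not tested. The labels only number the replicates, so p-values measure the spread between these libraries, which may be technical.

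The antisense RNAs were mostly scarce. Their means ran from 20.6 to 2846 with a median of 65, against a median of 534 over all 13930 genes tested, and 142 of the 214 lay under 100. Of the members, 211 were found in the GENCODE annotation of hg38 and 209 of these were classed as long noncoding RNA. The hosts were 211 distinct genes, of which 208 had a row and 196 had a mean of at least 10. FGD5 and C10orf95 were listed at 0 in all 6 libraries while FGD5-AS1 was the most abundant antisense RNA of all. Per kilobase of exon, a median antisense RNA stood at 15.1% of its host, and 40 of 206 antisense RNAs stood above their host. The kit kept strand, but the sources used here do not state which strand setting was counted, so reads shared by an antisense RNA and its host may not be told apart. Exons of a median member lay over host exons for 3.36% of their bases, with 51 members at 0 and 22 members over 25%.

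Few antisense RNAs differed with YK-4-279 by more than the spread between replicates. At an adjusted p under 0.05 (limma, Benjamini-Hochberg over all genes tested), 1 of 214 antisense RNAs changed, SPEN-AS1, which was higher, while 3.41% of all genes tested passed, 1.26% higher and 2.15% lower. At an unadjusted p under 0.05, 14 antisense RNAs passed, 10 of them higher and 4 lower, against 18.7% of all genes, 7.69% higher and 11.0% lower. At a mean of 20 to 100, 5 of 142 antisense RNAs passed it, against 294 of 2182 genes of that level. SPEN-AS1 was also the 1 antisense RNA called by edgeR, which called 3.34% of all genes, and by DESeq2, which called 4.73%, while 0 antisense RNAs passed under quantile normalization, under eBayes without trend and with a replicate block, the replicate number as a term in the fit. The count rose to 6 with trends on GC content and transcript length removed from each library and to 4 without DMSO replicate 1, where 1878 and 1823 of the 13930 genes passed, against 475. The 3 YK-4-279 libraries all lay above the 3 DMSO libraries for 22 antisense RNAs and all below them for 8, against 10.9% and 15.1% of all genes. At a mean of 20 to 100 these were 13 and 1 of 142 antisense RNAs, against 14.6% and 4.35% of all genes of that level. At a mean of at least 100 they were 9 and 7 of 72, against 9.83% and 18.4%. In bulk samples, fewer cells of a type and less RNA per cell cannot be told apart.

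The direction of the antisense RNAs went with their level. By sign alone 130 of 214 had higher values under YK-4-279, the median log2 fold change being 0.06, and under quantile normalization of the libraries this turned to 99 of 214 with a median of -0.01. Of all genes tested, 48.0% were higher. Among antisense RNAs with a mean of 20 to 100, 92 of 142 were higher and the median log2 fold change was 0.12, and among all genes of that level 64.8% were higher with a median of 0.13. Among antisense RNAs with a mean of at least 100, 38 of 72 were higher with a median of 0.01, and among all genes of that level 42.5% were higher with a median of -0.03. So the low antisense RNAs leaned upward as other low genes did. The standard error of the log2 fold change had a median of 0.19 for antisense RNAs and 0.09 for all genes, and 1.51% of all genes with a mean of 20 to 100 passed the threshold, against 4.08% of those with a mean of at least 100.

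**Figure D1:**
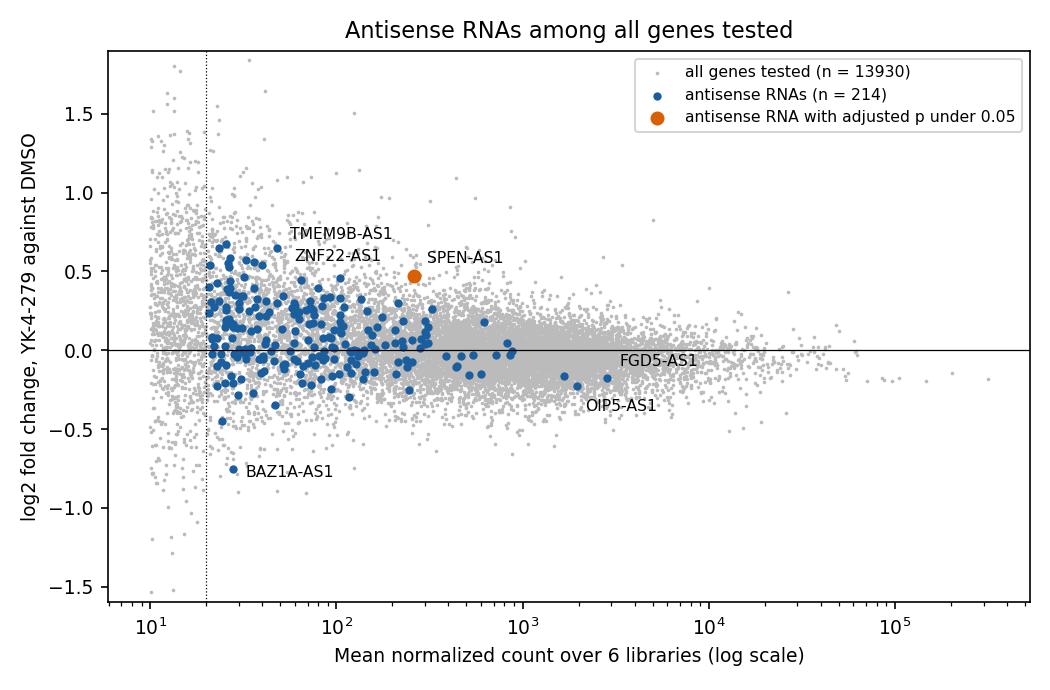
Log2 fold change with YK-4-279 against DMSO (y axis) by mean normalized count over 6 libraries (x axis, log scale) for the 13930 genes tested (grey, 2 of them outside the y axis) and the 214 antisense RNAs (blue), with SPEN-AS1 in orange and the minimum of 20 as a dotted line. The antisense RNAs lie within the grey cloud at each level, from -0.75 for BAZ1A-AS1, whose groups overlapped, to 0.67 for TEDC2-AS1, and SPEN-AS1 is the member past the threshold.

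SPEN-AS1, transcribed from the minus strand at chr1:15834474-15848147 (hg38) over the 5′ end of SPEN, was the antisense RNA that changed. Replicates 1 to 3 had normalized counts of 189, 245 and 225 in DMSO and 295, 306 and 309 with YK-4-279. Every YK-4-279 library lay above every DMSO library, and the log2 fold change was 0.47 ± 0.11 (SE, n = 3 per group), with an adjusted p of 0.0360 in limma. SPEN, a transcriptional corepressor that binds RNA, had 6439, 6089 and 6334 in DMSO and 6485, 6208 and 6327 with YK-4-279, a log2 fold change of 0.012 ± 0.054 (adjusted p = 0.935). The log2 level of SPEN-AS1 relative to SPEN was 0.46 higher with YK-4-279, with no overlap between groups (exact two-sided permutation p = 0.1, the smallest that 3 against 3 allows). In the annotation 33.6% of the exon bases of SPEN-AS1 lay over exons of SPEN. The adjusted p of SPEN-AS1 was 0.0730 without DMSO replicate 3, and 0.163, 0.168 and 0.159 without YK-4-279 replicates 1, 2 and 3, while it was 0.00729 and 0.0165 without DMSO replicates 1 and 2. With all 6 libraries it was 0.0517 under quantile normalization, 0.129 under eBayes without trend and 0.0655 with the replicate block, so each of these ended the call.

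Apart from SPEN-AS1, the largest rises that separated the groups were of scarce antisense RNAs, and none passed the adjusted threshold. TEDC2-AS1, beside a gene for a tubulin complex of the centriole, had values of 11.3, 23 and 25.9 in DMSO and 28.3, 35.9 and 29 with YK-4-279, a log2 fold change of 0.67 ± 0.31 (adjusted p = 0.268). TMEM9B-AS1, which starts head to head with a gene for a lysosomal membrane protein, had 35.3, 35 and 40.1 against 67.7, 43.5 and 67, a log2 fold change of 0.65 ± 0.22 (adjusted p = 0.121). Both sets of YK-4-279 values lay above all DMSO values, by a margin of few reads. MKLN1-AS, which GENCODE places inside the gene for muskelin, had 26.5, 26 and 25 against 30.8, 49.99 and 38 (0.57 ± 0.24). PXN-AS1, over the 3′ end of the gene for the focal adhesion protein paxillin, had 35.3, 25 and 37.6 against 43.7, 45.6 and 53 (0.54 ± 0.22). Adjusted p-values were 0.224 for MKLN1-AS and 0.211 for PXN-AS1, and the log2 fold changes of their hosts were -0.069 and 0.10.

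A further 4 of the 10 largest changes without overlap were rises of 0.39 to 0.46. ZNF22-AS1 had 80.7, 94.9 and 87.7 in DMSO and 136, 116 and 111 with YK-4-279, a log2 fold change of 0.46 ± 0.14 (adjusted p = 0.0994), and its host ZNF22, a zinc finger gene, stood at -0.19 ± 0.10 with overlapping groups. RBM26-AS1 had 79.4, 59 and 67.6 against 89.1, 91.3 and 89 (0.39 ± 0.16, adjusted p = 0.209), beside -0.063 ± 0.063 for RBM26, a gene for an RNA binding protein. In these 2 pairs the antisense RNA and the host had opposite signs. ADGRL1-AS1 had 40.3, 64 and 60.1 against 70.3, 71.7 and 79 (0.45 ± 0.20), and ADGRL1, the latrophilin adhesion receptor, had 0.17 ± 0.10. Both ZNF503-AS2 and its host, neither past the adjusted threshold in limma, had higher values with YK-4-279. ZNF503-AS2 had 22.7, 28 and 29.2 against 39.4, 32.6 and 39 (0.46 ± 0.23), and ZNF503 had 184, 256 and 252 against 336, 321 and 294 (0.47 ± 0.13, adjusted p = 0.0625). The groups did not overlap for ZNF503-AS2 or for ZNF503. ZNF503 passed in DESeq2 (adjusted p = 0.0421), with the GC content and length trends removed (0.0108) and without DMSO replicate 1 (0.0219) or 2 (0.0294).

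Of the 10 most abundant antisense RNAs, 3 separated the groups, all of them lower with YK-4-279 and none past the adjusted threshold, where the groups separated downward for 15.1% of all genes and for 18.4% of those with a mean of at least 100. FGD5-AS1, described as a microRNA sponge, had 3369, 2838 and 2867 in DMSO and 2722, 2683 and 2598 with YK-4-279, a log2 fold change of -0.18 ± 0.071 (adjusted p = 0.200). OIP5-AS1 had 2273, 2022 and 2056 against 1858, 1781 and 1788, a log2 fold change of -0.23 ± 0.065 (adjusted p = 0.0761). In both, all 3 YK-4-279 values lay below all DMSO values, and DMSO replicate 1 was the highest. Without DMSO replicate 1, OIP5-AS1 stood at -0.17 with an adjusted p of 0.00763, and FGD5-AS1 at -0.097 with an adjusted p of 0.143. OIP5, a centromere protein gene, had 68.1, 59 and 58.4 against 43.7, 46.7 and 43, a log2 fold change of -0.46 ± 0.18 (adjusted p = 0.181). HHIP-AS1 had 663, 594 and 637 against 571, 548 and 583 (-0.15 ± 0.078), and HHIP, a binding protein of hedgehog ligands, had 7051, 6009 and 6263 against 5447, 5628 and 5681 (-0.20 ± 0.064, adjusted p = 0.105). Of the HHIP-AS1 exon bases, 34.0% lay over exons of HHIP.

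The other 7 of the 10 most abundant antisense RNAs had overlapping groups. THAP9-AS1 stood at -0.16 ± 0.084, with a DMSO replicate 1 value of 2034 against 1517 to 1682 elsewhere. THUMPD3-AS1 stood at -0.0070, TP73-AS1 at -0.028, ARRDC1-AS1 at 0.048, PSMA3-AS1 at -0.031 and PAX8-AS1 at -0.033, with standard errors of 0.073 to 0.093. The signs of THUMPD3-AS1, TP73-AS1, ARRDC1-AS1 and PSMA3-AS1 turned under other settings. MRPL20-AS1 had 440.1 in DMSO replicate 1 and 640.0 to 671 in the other 5 libraries, so its log2 fold change of 0.18 ± 0.13 became -0.017 without that library.

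Promoter sequences are shown for 4 of the 7 antisense RNAs with an unadjusted p under 0.05 whose start in RefSeq lies within 1000 bases of the host's start, SPEN-AS1 as the member past the threshold, ZNF22-AS1 and TMEM9B-AS1 as the risers with the next lowest p-values, and TRIM52-AS1 as one that was lower. Each run holds the 300 bases from 250 before to 50 after the start in RefSeq (GRCh38.p14), 5′ to 3′ on the strand of the antisense RNA. Capitals mark matches, on either strand, to CCGGAAGT (an ETS core), GGGCGG (a GC box), CCAAT or TATAAA, none of which contains another. The windows are chr1:15848098-15848397 on the minus strand for SPEN-AS1, chr10:45000754-45001053 on the minus strand for ZNF22-AS1, chr11:8964425-8964724 on the plus strand for TMEM9B-AS1, and chr5:181260962-181261261 on the plus strand for TRIM52-AS1.
SPEN-AS1: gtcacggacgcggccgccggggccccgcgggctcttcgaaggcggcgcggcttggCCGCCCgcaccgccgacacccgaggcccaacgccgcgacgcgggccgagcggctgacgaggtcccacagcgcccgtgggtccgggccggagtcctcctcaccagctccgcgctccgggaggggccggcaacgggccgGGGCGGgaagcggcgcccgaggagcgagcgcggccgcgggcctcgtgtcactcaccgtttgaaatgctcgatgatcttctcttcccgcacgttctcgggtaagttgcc
ZNF22-AS1: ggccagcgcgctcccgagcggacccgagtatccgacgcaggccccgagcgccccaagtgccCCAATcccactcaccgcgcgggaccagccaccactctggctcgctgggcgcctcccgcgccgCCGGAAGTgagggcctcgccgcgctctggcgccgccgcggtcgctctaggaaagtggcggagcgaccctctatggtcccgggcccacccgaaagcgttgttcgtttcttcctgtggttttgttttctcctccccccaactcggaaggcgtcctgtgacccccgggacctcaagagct
TMEM9B-AS1: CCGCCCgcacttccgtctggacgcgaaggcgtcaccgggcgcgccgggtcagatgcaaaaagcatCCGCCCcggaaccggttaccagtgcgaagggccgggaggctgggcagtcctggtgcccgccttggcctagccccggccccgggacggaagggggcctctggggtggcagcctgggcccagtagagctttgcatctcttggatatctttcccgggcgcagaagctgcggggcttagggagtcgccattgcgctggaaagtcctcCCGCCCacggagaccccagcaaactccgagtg
TRIM52-AS1: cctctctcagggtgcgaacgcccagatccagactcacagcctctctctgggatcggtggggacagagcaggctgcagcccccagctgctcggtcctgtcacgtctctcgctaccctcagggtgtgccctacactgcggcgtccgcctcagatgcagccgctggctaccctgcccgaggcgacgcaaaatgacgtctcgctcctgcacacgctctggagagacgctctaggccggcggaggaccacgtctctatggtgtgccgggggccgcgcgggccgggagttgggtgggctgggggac

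The nearest listed start of SPEN lies 440 bases downstream of the SPEN-AS1 start, so those 5′ ends overlap. The host starts lie 120, 233 and 69 bases upstream of the starts of ZNF22-AS1, TMEM9B-AS1 and TRIM52-AS1, so those pairs are transcribed away from each other. The 4 windows hold 75.3%, 69.7%, 68.3% and 68.0% G and C, against a median of 58.3% over the 27305 RefSeq promoters (the first listed start of each gene) and 64.3% over the 165 antisense RNAs that matched. The ZNF22-AS1 window holds 1 ETS match and 1 CCAAT, the SPEN-AS1 window 2 GC boxes, the TMEM9B-AS1 window 3 GC boxes, and the TRIM52-AS1 window none of these letters. The ETS letters stand in 10 of the 165 antisense promoters (6.06%) and in 4.44% of all promoters, GC boxes in 60.0% and 44.6%, CCAAT in 32.7% and 35.7%, and TATAAA in 4.85% and 12%. The promoters of 166 hosts lie near the antisense shares, with ETS letters in 7.23%, GC boxes in 62.7%, CCAAT in 30.7% and TATAAA in 6.02%. A match is a description of letters and not a binding site. TRIM52-AS1, which was chosen for display after its values were seen, had 248, 279 and 277 in DMSO and 229.6, 236 and 210.1 with YK-4-279, a log2 fold change of -0.25 ± 0.10 (adjusted p = 0.210), and TRIM52 had 0.16 ± 0.093.

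Of the hosts, 9 of 196 passed the adjusted threshold (4.59%, against 3.41% of all genes tested), 2 higher and 7 lower. With the GC content and length trends removed 37 hosts passed, and without DMSO replicate 1 35 did, as the calls over all genes rose to 1878 and 1823. CDKN2B, which encodes the CDK4 and CDK6 inhibitor p15, rose the most. Normalized counts were 78.2, 90.9 and 78.5 in DMSO and 195, 177 and 178 with YK-4-279, a log2 fold change of 1.15 ± 0.13 (adjusted p = 7.49e-04). CDKN2B-AS1, which spans CDKN2B on the other strand with no exon bases over its exons, had 153, 143 and 154 against 139.7, 118 and 151, a log2 fold change of -0.14 ± 0.13 (adjusted p = 0.596). The host groups lay far apart and the antisense groups overlapped, and the log2 level of CDKN2B-AS1 relative to CDKN2B fell by 1.29 (exact two-sided permutation p = 0.1). LMCD1, a LIM domain co-regulator gene, had 1019, 1081 and 986 against 1224, 1299.6 and 1278 (0.30 ± 0.067, adjusted p = 0.0285), and LMCD1-AS1, which spans it, stood at 0.065 ± 0.23.

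IGF2, the fetal growth factor gene that is abundant in rhabdomyosarcoma, fell, and the antisense RNA inside it had overlapping groups. IGF2 had 18756, 17839.6 and 17093 in DMSO and 13037, 13108 and 11988 with YK-4-279, a log2 fold change of -0.49 ± 0.059 (adjusted p = 0.00118). IGF2-AS had 251, 316 and 311 against 296, 328 and 312, a log2 fold change of 0.10 ± 0.11 (adjusted p = 0.662), and 11.6% of its exon bases lay over exons of IGF2. Every YK-4-279 value of IGF2 lay below every DMSO value, and the sign of IGF2-AS turned under other settings. The level of IGF2-AS relative to IGF2 was 0.59 higher on the log2 scale (exact two-sided permutation p = 0.1).

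A further 5 hosts past the threshold were lower, and their antisense RNAs had overlapping groups. TMPO, a lamina-associated polypeptide gene, had 7753, 6497 and 6568 in DMSO and 5089.9, 5472 and 5389 with YK-4-279 (-0.38 ± 0.070, adjusted p = 0.0117), beside -0.14 ± 0.15 for TMPO-AS1. KIF23, a kinesin gene of cytokinesis, had 4529, 3501 and 3562 against 2784, 2952 and 2909 (-0.41 ± 0.086, adjusted p = 0.0206), beside 0.12 ± 0.31 for KIF23-AS1. Both were highest in DMSO replicate 1, and stood at -0.30 and -0.29 without it. TP73, of the p53 family, had 1081, 1253 and 1217 against 932, 837 and 889 (-0.42 ± 0.077, adjusted p = 0.0119), beside -0.028 ± 0.073 for TP73-AS1 over its 3′ end. SOX9, a developmental transcription factor gene, had 7256, 6545 and 6609 against 5569.7, 5344 and 5276 (-0.33 ± 0.059, adjusted p = 0.0103), beside -0.082 ± 0.16 for SOX9-AS1. BTG3, an antiproliferative gene, had 799, 707 and 633 against 536, 556 and 575 (-0.35 ± 0.090, adjusted p = 0.0497), beside -0.18 ± 0.17 for BTG3-AS1. So 0 of the 9 hosts that passed had an antisense RNA that passed. When any YK-4-279 library was left out, CDKN2B and IGF2 alone among the hosts passed. BTG3 also fell short of the threshold under TMM scaling, edgeR, quantile normalization, eBayes without trend and the replicate block and without DMSO replicate 2, with adjusted p-values from 0.0537 to 0.178. LMCD1 fell short with the replicate block (0.0805) and without DMSO replicate 3 (0.110), KIF23 under quantile normalization (0.0514), and each of the hosts named as past the threshold, except CDKN2B, under eBayes without trend.

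**Figure D2:**
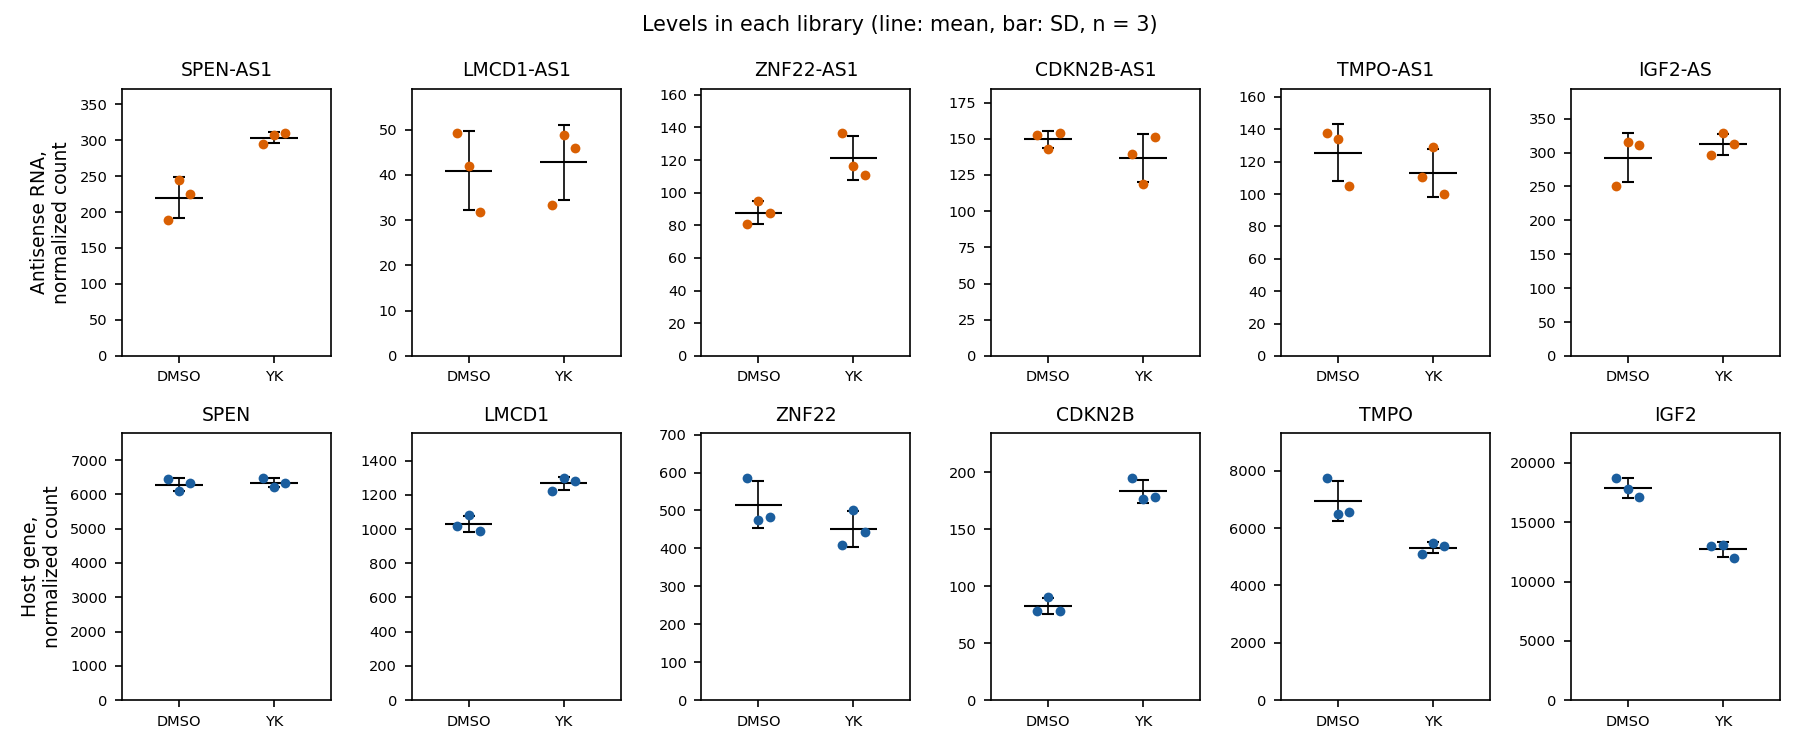
Normalized counts (y axes, each from 0) of 6 antisense RNAs (top, orange) and their hosts (bottom, blue) in the 3 DMSO and 3 YK-4-279 libraries, with the mean as a line and the SD as a bar. SPEN-AS1 rose beside SPEN at 6089 to 6485, CDKN2B rose from 78.2 to 90.9 up to 177 to 195 beside an overlapping CDKN2B-AS1, and TMPO and IGF2 were lower beside overlapping antisense RNAs.

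Across the 197 pairs with both members tested, the changes of antisense RNA and host showed little relation. Pearson's r was -0.02 and Spearman's rho 0.09, given as a description since the pairs share the same 6 libraries. The signs were the same in 104 pairs and opposite in 93. The level of the antisense RNA relative to its host separated the groups in 37 pairs, higher in 27 and lower in 10. Single genes did so in 10.9% and 15.1% of all genes, but a difference of 2 genes is not a like measure. Over the 197 pairs the median change of the antisense RNA relative to its host was 0.09 on the log2 scale. Antisense RNAs and tested hosts differed in level, with median means of 65 and 810. Of all genes with a mean of 20 to 100, 64.8% were higher (median 0.13), and of those with a mean of at least 100, 42.5% (median -0.03). How far the pair changes went with level was not tested. Taken singly, 10.3% of the antisense RNAs separated the groups upward and 3.74% downward, and 9.69% and 15.8% of the tested hosts. Both antisense RNA and host separated the groups in 7 pairs, and whether that exceeds what unrelated genes would give was not tested. In 5 of these the directions matched, namely ZNF503-AS2, FBXL19-AS1 and ZNF790-AS1 with both higher and OIP5-AS1 and HHIP-AS1 with both lower. In the other 2 they were opposite, with NUTM2A-AS1 lower and its host higher (FBXL19-AS1, ZNF790-AS1 and NUTM2A-AS1 were picked out after their values were seen).

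**Figure D3:**
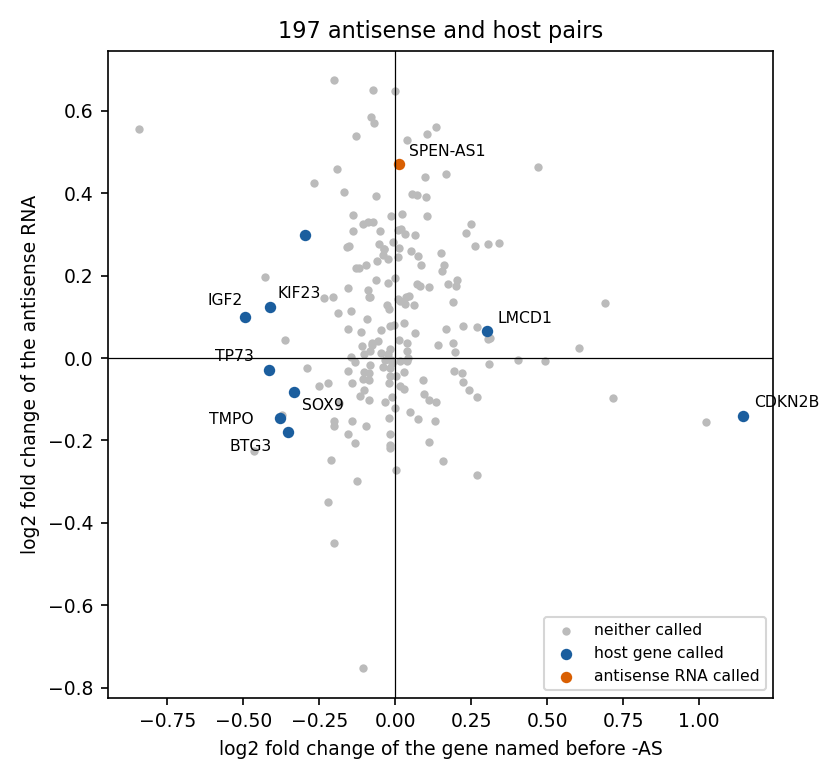
Log2 fold change of the antisense RNA (y axis) against that of its host (x axis), YK-4-279 against DMSO, for 197 pairs, with pairs whose host passed an adjusted p under 0.05 in blue and SPEN-AS1 in orange. Points fill all 4 quadrants, 104 with the same sign and 93 with opposite signs, and CDKN2B lies far right at 1.15 with its antisense RNA at -0.14.

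Some antisense RNAs have described roles. Of 38 such RNAs listed, 24 were tested and 0 passed the adjusted threshold in limma, against 3.41% of all genes, and those among them with a mean of at least 20 did not pass in edgeR or DESeq2 either. OIP5-AS1 and FGD5-AS1 passed with the GC content and length trends removed, and OIP5-AS1 without DMSO replicate 1. An unadjusted p under 0.05 was found for 3 of them, OIP5-AS1 and FGD5-AS1 included, against 18.7% of all genes. By sign, 13 were higher and 11 lower. ZEB1-AS1, which shares a promoter region with the epithelial-mesenchymal transition gene ZEB1, had 197, 176 and 167 in DMSO and 186, 177 and 187 with YK-4-279 (0.031 ± 0.11). MAPKAPK5-AS1 had 275, 277 and 291 against 289.6, 288 and 272 (0.013 ± 0.092), and MCM3AP-AS1 had 258, 222 and 248 against 243, 218 and 236 (-0.060 ± 0.10). Groups overlapped in all 3. DICER1-AS1, head to head with the gene for the microRNA processing enzyme, had 36.6, 32 and 28.4 against 32.6, 32.6 and 32. Its log2 fold change was 0.011 with a 95% interval of -0.46 to 0.49, so a change smaller than that could not be seen at this depth. SRRM2-AS1 (0.28 ± 0.28), TRAF3IP2-AS1 (0.11 ± 0.15) and the HOX cluster RNAs HOXB-AS1 (-0.055 ± 0.24), HOXC-AS1 (0.084 ± 0.36) and HOXC-AS2 (-0.023 ± 0.29) also overlapped. The signs of ZEB1-AS1, MAPKAPK5-AS1, DICER1-AS1 and the 3 HOX cluster RNAs turned under other settings.

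Grouped by what their hosts do, the antisense RNAs stayed below the threshold in each group, where 3.41% of all genes passed and 18.7% had an unadjusted p under 0.05. For hosts of the cell cycle, DNA replication and repair, 3 of 7 hosts passed, 1 higher (CDKN2B) and 2 lower (TMPO included), and 0 of their 7 antisense RNAs did, with 2 at an unadjusted p under 0.05, OIP5-AS1 included. The list behind this group did not hold KIF23, which also passed and was lower, so that pair is not in these counts. CDK6-AS1 (-0.012), CCND2-AS1 (0.31) and MCM3AP-AS1 lay beside hosts at -0.0087, 0.020 and -0.022. For homeobox and developmental transcription factors, 1 of 10 hosts passed, SOX9, and 0 of 10 antisense RNAs, with 0 at an unadjusted p under 0.05. PITX1-AS1 was the antisense RNA of this group without overlap, at 0.23 ± 0.15, beside -0.095 for PITX1, where 10.9% of all genes separated the groups upward. For muscle genes, 0 of 4 hosts and 0 of 4 antisense RNAs passed, with 1 host, ATP2A1, and 0 antisense RNAs at an unadjusted p under 0.05. ATP2A1, the calcium pump of fast muscle, stood at -0.20 ± 0.075 and ATP2A1-AS1 at -0.45 ± 0.32, with overlapping groups for the antisense RNA. MYLK-AS1 (0.40 ± 0.27), MEF2C-AS1 (0.31 ± 0.31) and CKMT2-AS1 (0.072 ± 0.11) overlapped as well.

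The pairs fell into position classes by their place in the GENCODE annotation. Antisense RNAs starting head to head with their host, with starts within 1000 bases on opposite strands, were 67 of the 206 placed pairs. Of these 46 were higher and the median log2 fold change was 0.13, while 23 of their 66 tested hosts were higher, with a median of -0.04. These values lie near those of all genes of like level, of which 64.8% were higher with a median of 0.13 at a mean of 20 to 100, and 42.5% with a median of -0.03 at a mean of at least 100. Under quantile normalization the antisense median was -0.000674. Antisense RNAs over the host's 5′ end (45, median 0.04), over its 3′ end (43, median 0.04), inside it (30, median 0.09) and spanning it (20, median -0.03) made up most of the rest, and 1, FOXD2-AS1, did not overlap its host. Same signs were seen in 26 of 66 head to head pairs. SPEN-AS1 was the 1 member past the threshold in any class, among those over the host's 5′ end, against 3.41% of all genes. With starts from RefSeq in place of GENCODE, a choice made after seeing the data, 78 of 142 pairs lay within 1000 bases with 54 antisense RNAs higher and a median of 0.11, and the 64 farther apart had 35 higher and a median of 0.03. Differences between the classes were not tested.

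**Figure D4:**
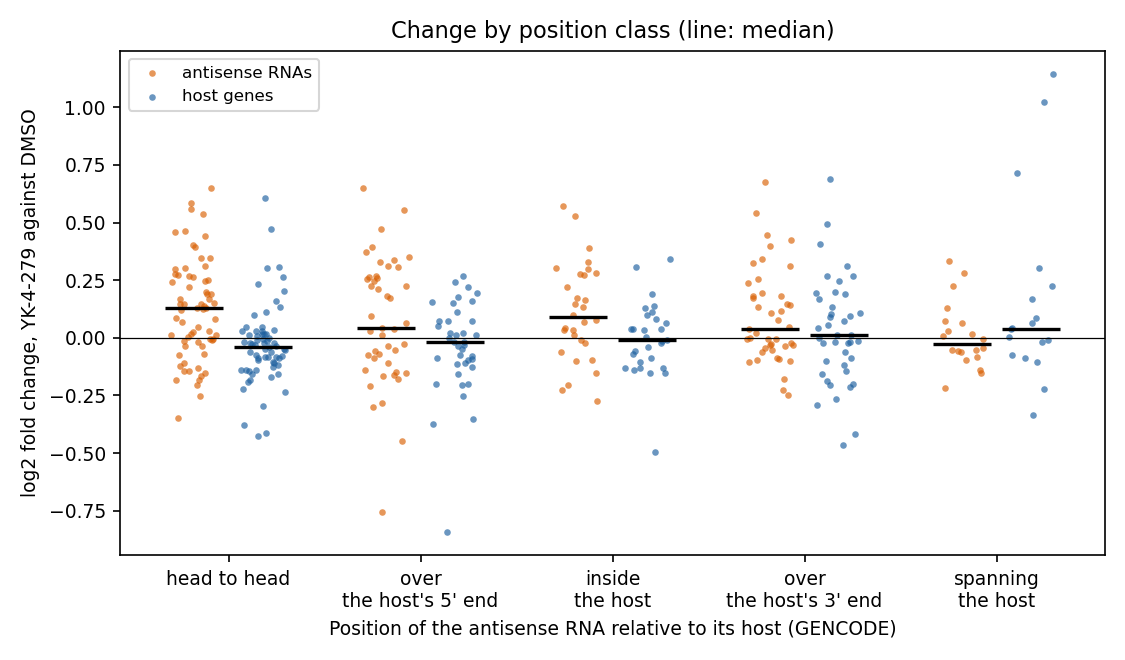
Log2 fold change with YK-4-279 against DMSO (y axis) of antisense RNAs (orange) and their hosts (blue) in the position classes from GENCODE (x axis), with 1 point per gene and the median as a line. The head to head antisense RNAs have the highest median, 0.13 (-0.000674 under quantile normalization), over hosts at -0.04, and all classes overlap widely.

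Antisense RNAs with and without exon bases over host exons were also counted apart. Of the 51 antisense RNAs with no exon base over host exons, 0 passed (limma, against 3.41% of all genes), 2 had an unadjusted p under 0.05 (against 18.7%), 35 were higher and the median log2 fold change was 0.08. Of the 155 with some overlap, 1 passed, 12 had an unadjusted p under 0.05, 91 were higher and the median was 0.04. HSD17B1-AS1 had the largest overlap, 65.5%, and values of 34, 45 and 45.1 in DMSO and 36, 42.4 and 40.02 with YK-4-279, which overlapped (it was picked out for its overlap).

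Other noncoding RNAs named by their position were counted in the same way. Of 89 divergent transcripts (-DT), 4 intronic transcripts (-IT) and 1 overlapping transcript (-OT) with a mean of at least 20, 0 of 94 passed the adjusted threshold in limma, edgeR or DESeq2, and 14 had an unadjusted p under 0.05, against 3.41% and 18.7% of all genes in limma and 1.51% past the adjusted threshold among genes with a mean of 20 to 100. By sign 63 of the 94 were higher, against 64.8% of all genes with a mean of 20 to 100 and 42.5% of those above, and their median log2 fold change was 0.09. Genes of RNA decay, which keep antisense and divergent transcripts low, are given beside all genes tested, of which 3.41% passed and 18.7% had an unadjusted p under 0.05. Of 26 genes of nuclear RNA turnover, EXOSC9 passed and was lower, at 1748, 1516 and 1540.5 in DMSO and 1290.5, 1326 and 1307 with YK-4-279 (-0.29 ± 0.070, adjusted p = 0.0394), with 13 of the 26 higher. EXOSC9 encodes a subunit of the RNA exosome core, and 0 of the decay genes passed without DMSO replicate 3, without any 1 of the YK-4-279 libraries, under quantile normalization, under eBayes without trend or with the replicate block. Of 15 Integrator subunits 0 passed, with 1 at an unadjusted p under 0.05, INTS8 at -0.21 ± 0.069. Of 16 genes of nonsense-mediated decay 0 passed, with 0 at an unadjusted p under 0.05, and UPF2 had the largest change at -0.13 ± 0.083.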

How the data were processed

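RNA from 6 Rh30 cultures was sequenced as directional, paired polyadenylated libraries. The authors trimmed reads with BBDuk, aligned them to hg38 with STAR 2.7.9a and counted them per gene, and the submitters' processing notes also name FastQC 0.11.8, MultiQC 1.8, bcl2fastq and DESeq2 1.44.0. The gene annotation and the strand setting of the counting are not given in the sources used here. What the authors deposited is a normalized signal, in which each gene's read number is scaled by its library's factor. Undoing that factor gave whole reads for 100% of values within 0.01. The table held 35269 rows, and 1 row without a gene name, with at most 6 reads per library, was left out.

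Two-sided tests of the 13930 genes whose mean over the libraries reached 10 were made in limma 3.58.1 under R 4.3.3, by lmFit and by eBayes with a trend, after adding 1 and taking log2. P-values were adjusted by Benjamini-Hochberg across all of these genes, and the threshold was 0.05. Fold changes on this scale understate the change of low genes. Groups were those of the labels and no replicate block was used. The study's own test was DESeq2 on counts, while the deposited values are normalized, so count tests on whole reads, by edgeR 4.0.16 and by DESeq2 1.42.0, were alternatives, which called 465 and 629 genes against 475 in limma. Pair differences were taken within each library and tested with an exact two-sided permutation test. Positions and exon overlap came from GENCODE on hg38, matched by symbol, and promoters from RefSeq.

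The genes named were the members past the threshold, the 10 with the highest mean, the 10 with the largest change without overlap between groups, those with described roles, their hosts, every host past the threshold, and the rows next to the minimum of 20. Some genes that met this rule are counted but not reported here. From the decay lists and the position-named RNAs, those past the threshold or with the largest change were taken. The members and lists were chosen with earlier results of these data known. No pair of libraries was identical within sampling noise. The code was tested on simulated reads. Depth ran from 16724650 to 24677433 reads per library.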

Additional observations from a re-analysis of the deposited data

How the results depend on the processing

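The count of antisense RNAs past the threshold was 1 and stayed at 1 with other pseudocounts and filters, TMM scaling, edgeR, DESeq2 and a member minimum of 50. It was 6 with trends on GC content and transcript length taken out of each library (SPEN-AS1, ZNF22-AS1, RBM26-AS1, OIP5-AS1, FGD5-AS1 and TRIM52-AS1, 3 higher and 3 lower), 0 with quantile normalization, with eBayes without trend and over the 51 members with no exon bases over host exons, and 0 to 4 when a library was left out. It was 4 without DMSO replicate 1 (SPEN-AS1, OIP5-AS1 and TRIM52-AS1 included), and 0 without DMSO replicate 3 or any YK-4-279 replicate. The hosts past the threshold numbered 9, but 37 with the GC and length trend removed, 2 with eBayes without trend and 2 to 35 when a library was left out, with 35 without DMSO replicate 1 and 2 without any YK-4-279 replicate. Over all genes these settings called 1878, 33 and 1823, against 475, and the YK-4-279 libraries left out in turn gave 19, 23 and 46. The position-named RNAs went from 0 to 1 with the GC and length trend removed and 0 to 3 when a library was left out, with 3 without DMSO replicate 1. The decay genes went from 1 to 5 with that trend removed, 0 with eBayes without trend and with quantile normalization, and 0 to 4 when a library was left out, with 4 and 3 without DMSO replicates 1 and 2. In the position classes the head to head median went from 0.13 to -0.000674 with quantile normalization. The median change of antisense RNAs relative to hosts kept its sign throughout. The causes were not tested.

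The deviations of same-numbered libraries correlated at -0.098, -0.027 and -0.027, so no pairing by replicate number was seen in the values. The labels do not say whether same-numbered cultures were set up together. With the replicate block 0 antisense RNAs, 6 hosts and 0 decay genes passed, and 180 genes in all against 475.

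Small changes turned sign. With the GC and length trend removed THUMPD3-AS1 stood at 0.012, ARRDC1-AS1 at -0.019, PSMA3-AS1 at 0.029, HOXC-AS1 at -0.036, IGF2-AS at -0.0049, DICER1-AS1 at -0.024, MAPKAPK5-AS1 at -0.072, SPEN at -0.068, MRPL20 at -0.011. Quantile normalization put THUMPD3-AS1 at 0.014, ZEB1-AS1 at -0.013, HOXC-AS1 at -0.12, DICER1-AS1 at -0.14, MAPKAPK5-AS1 at -0.0093, ARHGAP31-AS1 at -0.044. THUMPD3-AS1 stood at 0.0049 in DESeq2, 0.016 in edgeR and 0.0083 with TMM scaling, and HOXC-AS2 at 0.0012 in edgeR. Over the 6 fits without 1 library each, ranges that crossed 0 were -0.040 to 0.052 for THUMPD3-AS1, -0.073 to 0.0056 for TP73-AS1, -0.017 to 0.089 for ARRDC1-AS1, -0.12 to 0.027 for PSMA3-AS1, -0.017 to 0.28 for MRPL20-AS1, -0.021 to 0.097 for ZEB1-AS1, -0.22 to 0.38 for HOXC-AS1, -0.20 to 0.20 for HOXC-AS2, -0.23 to 0.13 for HOXB-AS1, -0.010 to 0.16 for CKMT2-AS1, -0.0073 to 0.16 for IGF2-AS, -0.076 to 0.10 for DICER1-AS1, -0.0037 to 0.041 for MAPKAPK5-AS1, -0.011 to 0.030 for SPEN, -0.21 to 0.082 for THAP9, -0.0085 to 0.12 for THUMPD3, -0.11 to 0.47 for PAX8, -0.12 to 0.011 for TMEM9B and -0.14 to 0.028 for MKLN1.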

Other observations

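Antisense symbols too scarce for the minimum of 20 were looked at as well. There were 106 with a mean of 10 to 20, of which 65 were higher with YK-4-279, with a median log2 fold change of 0.12, and 0 passed the adjusted threshold in limma while 12 had an unadjusted p under 0.05, against 3.41% and 18.7% of all genes tested. TTN-AS1, which lies opposite the gene for the sarcomere protein titin, had 10.1, 9.99 and 14.2 in DMSO and 18, 14.1 and 14 with YK-4-279, with overlapping groups and a log2 fold change of 0.41 ± 0.34. FOXD3-AS1 had 6.30, 15 and 17.5 against 21.4, 13 and 24 (0.62 ± 0.40), HOXA-AS3 15.1, 13 and 12.5 against 11.1, 8.69 and 14 (-0.26 ± 0.35) and BDNF-AS 17.7, 13 and 11.7 against 17.1, 9.78 and 9 (-0.25 ± 0.37). Groups overlapped in each of these. WT1-AS was listed at 0 in all 6 libraries, and 300 of the 1085 antisense symbols were.

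Antisense RNAs of zinc finger hosts whose symbol starts with ZNF, a group picked after the values were seen, numbered 18. Of these 12 were higher, 0 passed in limma and 2, ZNF22-AS1 and ZNF790-AS1, had an unadjusted p under 0.05, against 48.0%, 3.41% and 18.7% of all genes tested. ZNF790-AS1 had 116, 118 and 126 in DMSO and 158, 158 and 137 with YK-4-279 (0.32 ± 0.12). Of their 17 tested hosts 10 were higher and 0 passed in limma, with 2 at an unadjusted p under 0.05, to be read against the same shares. The median mean was 95.1 for these antisense RNAs and 360 for these hosts. Of all genes with a mean of 20 to 100, 64.8% were higher, and 42.5% of those with a mean of at least 100. The widest gap between an antisense RNA and its host was at SDCBP2, a scarce host with a mean of 10.8, where SDCBP2-AS1 had 32.8, 12 and 20.9 against 25.7, 32.6 and 33 and SDCBP2 had 15.1, 12 and 15 against 10.3, 5.43 and 7. The level of SDCBP2-AS1 relative to SDCBP2 was 1.40 higher with YK-4-279 on the log2 scale (exact two-sided permutation p = 0.1). The SD of this level was 0.54 in DMSO and 0.59 with YK-4-279. The pair was picked as the widest of 197, and the groups of SDCBP2-AS1 overlapped. SDCBP2 reached the testing minimum of 10 through its DMSO values, so this gap is given as a description only.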
